A study of Mus musculus with 2 samples.

Results

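The 10 genes described here encode the MHC class I heavy chains (H2-K1, H2-D1), their light chain (B2m), the peptide transporter and its loading partner (Tap1, Tap2, Tapbp), the catalytic subunits of the immunoproteasome (Psmb8, Psmb9, Psmb10) and the class I transactivator (Nlrc5). They are listed by name with no threshold on a measured value, although earlier results of these data were known when they were listed, and all 10 are among the 21905 genes of the tables. They were followed in single resident cells of mouse bone, with 1 library of vehicle-treated mice (Veh) and 1 of mice given doxorubicin (Doxo), a chemotherapy drug of the anthracycline class. Femurs and tibias came from 12-week-old female mice, those of the Doxo condition harvested 96 h after 10 mg/kg, and cells carrying CD45, CD71, Ter119 or CD31 were depleted by sorting, although the methods and the sample labels differ on CD31. The sources used here state neither the number of mice behind a library nor a strain, allele or transgene for it. With 1 library per condition no test between conditions was possible, each comparison describes these 2 libraries, and the 95% intervals cover counting error alone.

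MHC class I molecules carry peptides from inside a cell to its surface, where CD8 T cells and natural killer cells read them. Proteasomes cut proteins into peptides, the TAP transporter moves these into the endoplasmic reticulum, and tapasin (Tapbp) holds the transporter near empty class I molecules while they load. In cells exposed to interferon, Psmb8, Psmb9 and Psmb10 replace the constitutive subunits Psmb5, Psmb6 and Psmb7, and Nlrc5 acts on the promoters of class I genes as Ciita does on those of class II genes. In bone marrow, CXCL12-abundant reticular (CAR) cells are stromal cells of the adipocyte lineage that hold hematopoietic stem cells in their niche.

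Of the 10 genes, 7 lie on mouse chromosome 17 (GRCm38 coordinates, GENCODE M21 annotation). H2-K1 lies at chr17:33996017-34000347 on the minus strand and H2-D1 at chr17:35262730-35267499 on the plus strand. Psmb9, Tap1, Psmb8 and Tap2 follow each other within 34335 bases, chr17:34181987-34216321. Tapbp lies on the same chromosome at chr17:33915899-33929292. B2m is on chromosome 2 (chr2:122147686-122153083), and Nlrc5 (chr8:94434356-94527272) and Psmb10 (chr8:105935735-105938444) are on chromosome 8. H2-K1 and H2-D1 are near-identical to each other and to other class I genes, so the split of reads between them is uncertain, and Psmb9 overlaps the start of Tap1 on the other strand.

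Promoter windows of 8 of the 10 genes (RefSeq, GRCm38.p6, 250 bases before to 50 after the RefSeq start, which can differ from the GENCODE start) were searched on both strands for 5 motifs, and 5 windows are printed because they hold a match or are shared by a pair of the genes. Tap2 and Nlrc5 are not in that table. The windows are chr17:34000298-34000597 (minus strand) for H2-K1, chr17:35262844-35263143 for H2-D1, chr2:122147437-122147736 for B2m, chr17:34197945-34198244 for Psmb8 and chr17:34187306-34187605 for Tap1, the last 4 on the plus strand. Capitals mark the NF-kB consensus site in H2-K1, H2-D1 and B2m, the interferon-stimulated response element (GAAA, any 2 bases, GAAA, the first run of capitals) in B2m, and the gamma-activated site (TTC, any 3 bases, GAA) in Psmb8.
H2-K1: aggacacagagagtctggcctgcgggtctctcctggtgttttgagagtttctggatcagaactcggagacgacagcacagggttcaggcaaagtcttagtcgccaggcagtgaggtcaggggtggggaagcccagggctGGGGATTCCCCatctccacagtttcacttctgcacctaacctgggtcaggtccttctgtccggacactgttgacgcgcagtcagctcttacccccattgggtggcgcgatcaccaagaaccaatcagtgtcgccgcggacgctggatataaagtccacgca
H2-D1: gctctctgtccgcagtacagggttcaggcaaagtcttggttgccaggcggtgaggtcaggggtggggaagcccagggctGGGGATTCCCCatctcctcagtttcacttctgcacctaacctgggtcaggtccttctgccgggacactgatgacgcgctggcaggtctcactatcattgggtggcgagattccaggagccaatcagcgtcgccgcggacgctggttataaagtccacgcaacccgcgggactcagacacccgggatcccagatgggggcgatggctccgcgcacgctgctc
B2m: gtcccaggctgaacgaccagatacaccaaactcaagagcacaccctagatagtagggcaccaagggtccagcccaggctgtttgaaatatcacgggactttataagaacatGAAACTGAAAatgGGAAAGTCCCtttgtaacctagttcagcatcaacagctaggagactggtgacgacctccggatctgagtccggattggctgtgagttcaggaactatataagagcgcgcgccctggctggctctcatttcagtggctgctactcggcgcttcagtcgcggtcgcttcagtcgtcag
Psmb8: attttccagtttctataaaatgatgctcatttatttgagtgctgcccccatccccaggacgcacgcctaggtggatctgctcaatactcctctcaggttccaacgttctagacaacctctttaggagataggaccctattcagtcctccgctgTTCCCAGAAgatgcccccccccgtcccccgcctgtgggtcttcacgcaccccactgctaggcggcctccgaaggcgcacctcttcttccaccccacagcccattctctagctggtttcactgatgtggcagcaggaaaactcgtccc
Tap1: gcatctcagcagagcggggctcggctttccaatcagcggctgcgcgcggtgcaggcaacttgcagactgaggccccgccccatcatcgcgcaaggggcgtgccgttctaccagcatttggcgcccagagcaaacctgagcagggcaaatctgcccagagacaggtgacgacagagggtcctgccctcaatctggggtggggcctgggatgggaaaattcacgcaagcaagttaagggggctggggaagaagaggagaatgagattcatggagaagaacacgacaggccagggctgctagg
The NF-kB consensus site was found in 3 of the 8 genes and in 4.51% of all 32851 windows. An exact match to the interferon-stimulated response element was found in B2m alone, starting 139 bases before the start, and in 3.44% of all windows. The gamma-activated site was matched in Psmb8 alone and in 8.30% of all windows. The sequence CCAAT, bound by NF-Y, was found in 6 of the genes and in 37.4% of windows, and TGACG in 5 genes and in 20.8% of windows. All 5 genes with TGACG (H2-K1, H2-D1, B2m, Tap1 and Psmb9) also hold CCAAT. The windows of Tap1 and Psmb9 share 275 of 300 bases, read in opposite directions. A match is a run of letters and was not tested as a site. Only exact matches were counted, so a window without a match can still hold a variant of the element.

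Levels are given as unique molecular identifiers (UMIs, single RNA molecules) of a gene summed over the cells of a class, per 1000000 UMIs of that class (CPM). The Veh library held 24859695 UMIs and the Doxo library 20792012, in 2488 cells each, with a median of 8693 and 7347.5 UMIs per cell, and 4 cell barcodes occurred in both. Cells were grouped by marker genes into classes written as "like" a cell type. There were 371 Veh and 428 Doxo CAR-like cells, 1105 and 1358 cells like bone and cartilage fibroblasts, 413 and 249 like arteriolar and endosteal fibroblasts, 205 and 125 osteoblast-like, 247 and 204 chondrocyte-like and 103 and 69 endothelial-like cells. A further cluster of 44 and 55 cells, led by Clic5, stayed unnamed. Within their own class, 8 of 8 CAR, chondrocyte and endothelial markers and 6 to 7 of the 8 to 10 markers of the other classes passed the marker rule. CD31-bearing cells were meant to be depleted, yet the endothelial-like cells carried 7595 and 7594 CPM of the 8 endothelial markers in Veh and Doxo. RNA of blood cell genes differed between the libraries. The summed level of 6 erythroid markers spanned 118 to 681 CPM over the 7 Veh classes but 0 to 11.4 CPM over those of Doxo. For 9 immune markers the spans were 38.3 to 1210 CPM and 37.7 to 131 CPM. The immune sum was 1210 CPM in Veh against 97.1 in Doxo in CAR-like cells, and 1036 against 97.7 in cells like bone and cartilage fibroblasts, but 98.1 against 80.9 in cells like arteriolar and endosteal fibroblasts. The CAR-like cells' sum of 9 osteoblast markers was 9306 against 2514. Ptprc, which encodes CD45, had 5 UMIs in CAR-like cells of Veh and 1 in those of Doxo. The part of this RNA in the results was not tested.

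CAR-like cells carried the highest level of 8 of the 10 genes in each library, and they were among the top 2 classes for all 10. With each cell thinned to 2000 UMIs, the Veh count was 4, with endothelial-like cells ahead of CAR-like cells for Tap2, Tapbp, Psmb8, Psmb9 and Psmb10 and osteoblast-like cells for Nlrc5. H2-K1, a classical class I heavy chain, stood at 3092 CPM in CAR-like cells of Veh (3024 to 3161) and at 2927 in Doxo (2869 to 2985). Endothelial-like cells followed at 1351 (1266 to 1440) and 1517 (1391 to 1652). No other class passed 339. The fibroblast-like classes stood at 141 and 122 CPM (bone and cartilage) and 179 and 172 (arteriolar and endosteal) in Veh and Doxo, and chondrocyte-like cells at 118 and 99.7. The osteoblast-like cells (277 and 339) and the unnamed cluster (247 and 325) lay between, with overlapping intervals within each library. Nearly every CAR-like cell had a UMI of H2-K1, 97.8% in Veh and 99.5% in Doxo, and at an equal depth of 2000 UMIs per cell the share was 96.3% and 98.6% against 21.4% and 20.8% in the cells like bone and cartilage fibroblasts.

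H2-D1, the other classical heavy chain, showed the same leading classes with a flatter slope. It stood at 4239 CPM in CAR-like cells of Veh and 4200 in Doxo, at 1795 and 1909 in endothelial-like cells, and at 536 and 430 in cells like bone and cartilage fibroblasts. The unnamed cluster held 1022 and 1059, next after the endothelial-like cells. The lowest class was again the chondrocyte-like cells, at 223 and 154. B2m, the light chain that every class I molecule needs to fold, stood at 2546 CPM in CAR-like cells of Veh (2485 to 2609) and 3119 in Doxo (3060 to 3180). Endothelial-like cells came close, at 2010 and 2354, and chondrocyte-like cells were lowest, at 144 and 147. The order of the classes thus held across the 3 genes at its top and bottom, and the classes between them changed places.

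**Figure D1:**
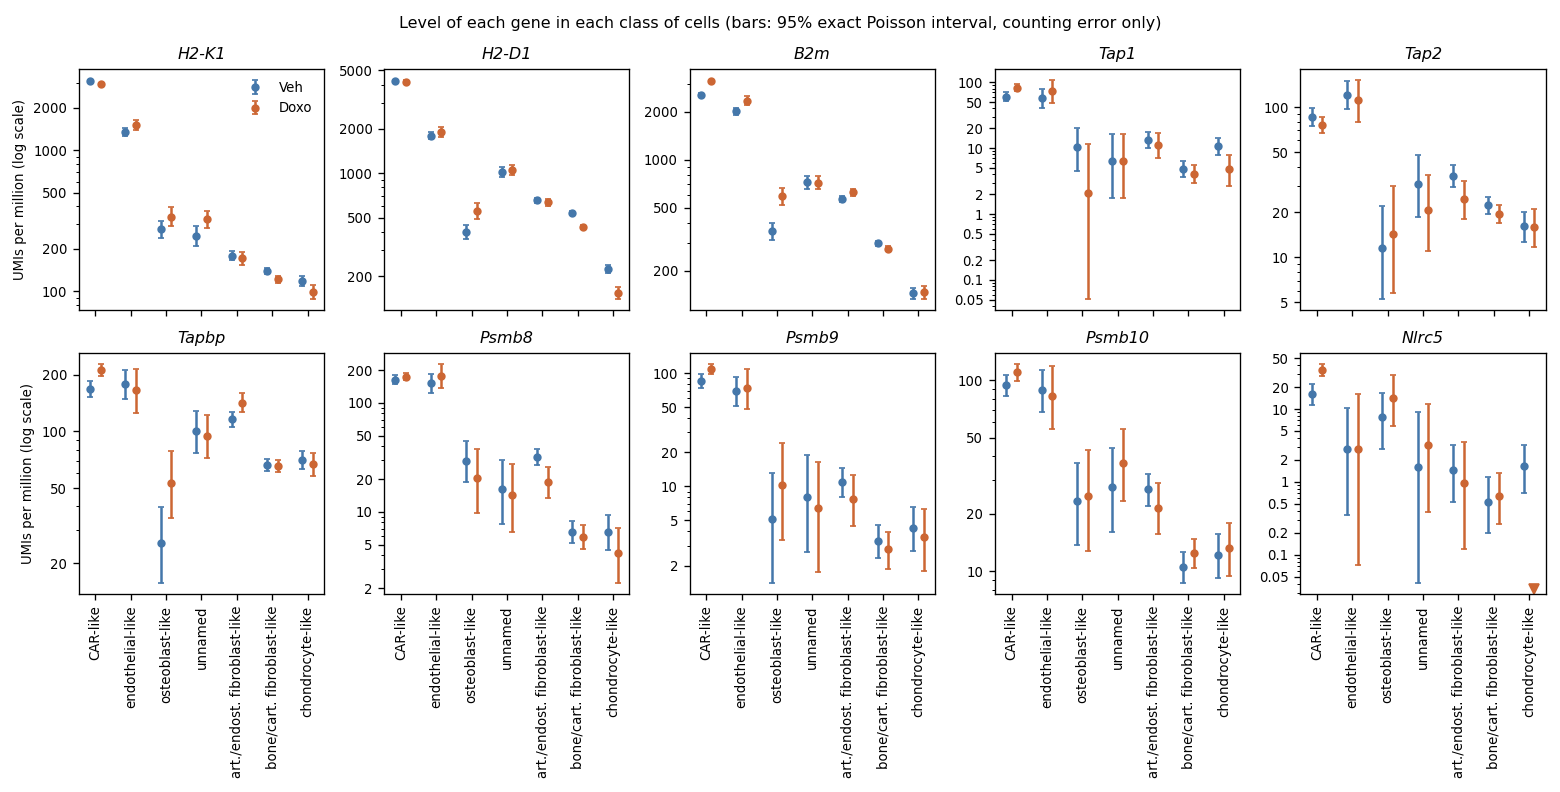
Level of each of the 10 genes in each class of cells, in CPM on a log axis, for the Veh and Doxo libraries. Points are summed UMIs, bars are exact Poisson intervals, and a triangle marks a class at 0 UMIs. CAR-like and endothelial-like cells sit above the other 5 classes for 9 of the 10 genes. Nlrc5 is highest in CAR-like cells, with intervals that overlap those of osteoblast-like cells.

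The transporter genes had the same leading classes. Tap1 stood at 60.4 CPM in CAR-like cells of Veh (154 UMIs) and 82.5 in Doxo (278 UMIs), and at 57.1 and 74.3 in endothelial-like cells, so the 2 classes overlapped in each library. No other class passed 13.4. Tap2, the partner of Tap1 in the transporter, was one of the genes highest in endothelial-like cells, at 121 CPM in Veh and 111 in Doxo against 85.9 and 76.3 in CAR-like cells, again with overlapping intervals. Tapbp, the loading partner, was spread over more classes. It stood at 168 and 211 in CAR-like cells, 178 and 166 in endothelial-like cells, 116 and 142 in arteriolar and endosteal fibroblast-like cells and 66.6 and 65.8 in cells like bone and cartilage fibroblasts. Endothelial-like cells thus led for Tapbp in Veh and CAR-like cells in Doxo, and the intervals of those 2 classes overlapped both times.

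The inducible proteasome subunits followed the same pattern. Psmb8 stood at 164 and 174 CPM in CAR-like cells, at 151 and 177 in endothelial-like cells and at 6.58 and 5.92 in cells like bone and cartilage fibroblasts. Psmb9 stood at 85.1 and 109 in CAR-like cells, at 69.9 and 74.3 in endothelial-like cells and at 3.29 and 2.78 in cells like bone and cartilage fibroblasts. Psmb10 stood at 93.8 and 110 in CAR-like cells, at 88.5 and 82.9 in endothelial-like cells and at 10.5 and 12.4 in cells like bone and cartilage fibroblasts. The intervals of CAR-like and endothelial-like cells overlapped for all 3 subunits in each library.

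Nlrc5 was the exception to the pairing of CAR-like and endothelial-like cells. It had 41 UMIs in the Veh and 117 in the Doxo CAR-like cells, which are 16.1 CPM (11.5 to 21.8) and 34.7 (28.7 to 41.6). Endothelial-like cells held 2 and 1 UMIs, or 2.85 and 2.86 CPM with upper bounds of 10.3 and 15.9. Osteoblast-like cells came next to CAR-like cells at 7.72 and 14.4, on 6 and 7 UMIs, and the intervals of these classes overlapped in each library. In Doxo chondrocyte-like cells Nlrc5 was not detected, with an upper bound of 1.19 CPM, against 8 UMIs in Veh. Over all cells of a library, CAR-like cells carried 58.6% of the Nlrc5 UMIs in Veh (46.2 to 70.2%) and 86.0% in Doxo (79.0 to 91.4%).

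Cxcl12, Adipoq and Lepr, which define CAR cells, served as a rough gauge of RNA of CAR-like cells in the other classes. RNA of these genes made by the other cells themselves was not told apart. Their summed level there was 0.281 to 5.69% of that in CAR-like cells. Lepr alone stood higher in some classes, at 10.3% (Veh) and 8.19% (Doxo) in cells like bone and cartilage fibroblasts and at 8.04% and 9.08% in arteriolar and endosteal fibroblast-like cells, above the share of H2-K1 in the same classes. Of the 12 class and library values, 11 had at least 9 of the 10 genes with a lower bound above the share of the summed level. In cells like bone and cartilage fibroblasts of Veh, Cxcl12 alone stood at 0.71% and Adipoq alone at 0.53%. Passing thus depends on the gene used, and a pass does not measure a gene's own level in a class. H2-K1 in cells like bone and cartilage fibroblasts stood at 4.55% of its CAR-like level in Veh against 1.29% for the CAR genes, and H2-D1 at 12.6%. Nlrc5, with at most 7 UMIs in each, did not pass in 7 of the 12, so no level of its own is read there. Tap1 in Doxo osteoblast-like cells and Psmb9 in the Doxo unnamed cluster did not pass either.

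The balance between the heavy chains split the classes into groups, and this balance does not depend on the scaling of the libraries. H2-K1 made up 42.2% of the summed H2-K1 and H2-D1 UMIs in CAR-like cells of Veh (41.5 to 42.9%) and 41.1% in Doxo (40.4 to 41.7%). Endothelial-like cells stood at 42.9 and 44.3%, and osteoblast-like cells at 41.0 and 37.8%. The share was 20.8 and 22.1% in cells like bone and cartilage fibroblasts, 21.4 and 21.3% in arteriolar and endosteal fibroblast-like cells and 19.5 and 23.5% in the unnamed cluster. Chondrocyte-like cells lay between, at 34.6 and 39.3%. The intervals of the fibroblast-like classes and those of the CAR-like cells were far apart in each library, while those of Veh and Doxo overlapped in all 7 classes.

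B2m differed from the heavy chains in this. Its share of the summed B2m, H2-K1 and H2-D1 UMIs in CAR-like cells was 25.8% in Veh (25.2 to 26.3%) and 30.4% in Doxo (30.0 to 30.9%). In chondrocyte-like cells it was 29.8 and 36.8%, in cells like bone and cartilage fibroblasts 30.6 and 33.3%, and in arteriolar and endosteal fibroblast-like cells 40.4 and 43.6%. The share was higher in Doxo in 6 of the 7 classes, with intervals apart in these 4, and lower in the unnamed cluster, at 36.3 and 34.1%. Reads moved between H2-K1 and H2-D1 leave this share unchanged, but heavy chain reads dropped, or moved to or from other class I genes, would change it.

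**Figure D2:**
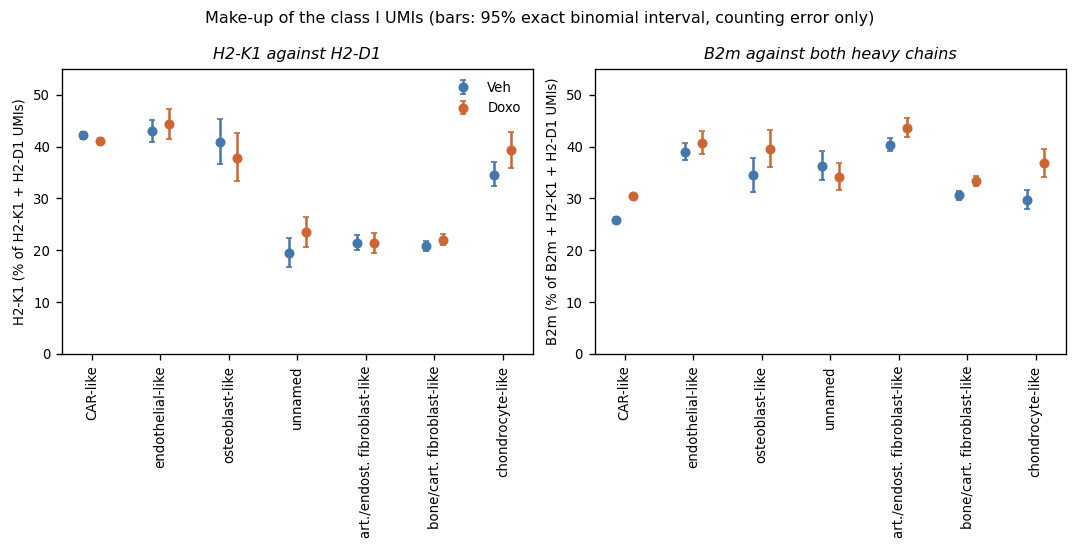
Left, H2-K1 as a percent of the summed H2-K1 and H2-D1 UMIs by class and library. Right, B2m as a percent of the summed UMIs of B2m and both heavy chains. Bars are exact binomial intervals. On the left the CAR-like, endothelial-like and osteoblast-like cells sit near 40% and the fibroblast-like classes near 20% in both libraries, and on the right the Doxo point is above the Veh point in 6 of 7 classes.

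How far the inducible subunits stand in for the constitutive ones was read within each pair, in the same cells, where 3' libraries count an RNA molecule once whatever its length. Psmb8 made up 53.9% of the Psmb8 and Psmb5 UMIs in CAR-like cells of Veh (50.4 to 57.5%) and 51.1% in Doxo (48.2 to 54.1%). Endothelial-like cells stood at 58.9 and 62.0%, arteriolar and endosteal fibroblast-like cells at 19.6 and 14.1%, and cells like bone and cartilage fibroblasts at 5.67 and 5.94%. Psmb10 made up 54.9 and 57.9% of its pair with Psmb7 in CAR-like cells, 41.3 and 43.3% in endothelial-like cells and 11.5 and 14.7% in cells like bone and cartilage fibroblasts. In CAR-like cells the libraries overlapped for both pairs. Psmb9 made up 35.7% of its pair with Psmb6 in CAR-like cells of Veh (31.9 to 39.6%) and 43.8% in Doxo (40.4 to 47.3%), so these intervals did not overlap, while endothelial-like cells stood at 34.3 and 35.1%. Differences between the pairs were not tested. With cells chosen by CAR markers in place of the cluster, the shares were lower and all 3 were higher in Doxo. They stood at 35.3 and 42.4% for Psmb8, 18.5 and 30.8% for Psmb9 and 36.3 and 46.6% for Psmb10. Of the 788 Veh and 768 Doxo cells so chosen, 793 lay in the CAR-like cluster. The part of the other cells in these shares was not tested. Over the Veh classes, the constitutive subunit Psmb5 ran from 63.1 to 160 CPM, Psmb6 from 94.0 to 178 and Psmb7 from 38.6 to 126.

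**Figure D3:**
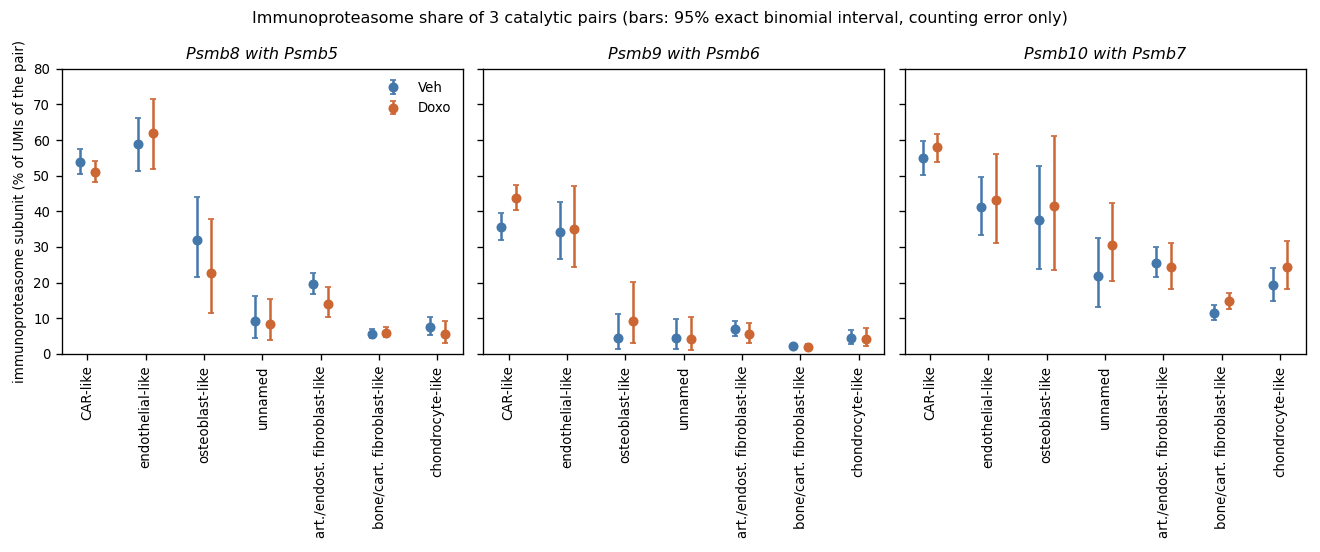
Immunoproteasome subunit as a percent of the UMIs of its catalytic pair, by class and library, with exact binomial intervals. CAR-like and endothelial-like cells reach 34.3 to 62.0% over the 3 pairs, and cells like bone and cartilage fibroblasts reach at most 14.7%. The Veh and Doxo intervals stand apart for CAR-like cells in the Psmb9 pair and overlap for the other points.

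Within CAR-like cells, Nlrc5 alone of the 10 genes passed the size rule. A gene was counted as higher or lower when its log2 ratio of Doxo to Veh was at least 0.5 or at most -0.5, among genes with at least 50 UMIs in the class. All 10 genes met that minimum, 1 of them (Nlrc5) was higher and none was lower, where 13.7% of all 9497 genes were higher and 10.4% lower. The median over the 10 genes was 0.26, and over all genes 0.05. The log2 ratio of Nlrc5 was 1.10 (0.59 to 1.66). Tap1 followed at 0.45 (0.16 to 0.74), Psmb9 at 0.35 (0.11 to 0.60), Tapbp at 0.33 (0.15 to 0.50) and B2m at 0.29 (0.25 to 0.34). These 5 had intervals above 0 over the class as a whole. The ratio was 0.22 (-0.01 to 0.47) for Psmb10, 0.09 (-0.09 to 0.28) for Psmb8, -0.17 (-0.44 to 0.10) for Tap2 and -0.01 (-0.05 to 0.02) for H2-D1. For H2-K1 it was -0.08 (-0.12 to -0.04) from summed UMIs but 0.01 with thinned cells and 0.05 with every cell weighing the same, so no direction is given.

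Depth and the choice of cells moved several of these values. With each cell thinned to 2000 UMIs, 3 genes were higher, Tapbp, Psmb9 and Psmb10, each with a log2 ratio between 0.58 and 0.60, while Tap1 stood at 0.01 and Nlrc5 was left with 8 and 20 UMIs. Cells were also taken as CAR-like for a UMI of at least 2 of the markers Cxcl12, Lepr, Adipoq and Ebf3. With none of Ptprc and outside the endothelial-like cells, these were 788 Veh and 768 Doxo cells, and 6 of the 10 genes were higher. Of these cells, 793 lay in the CAR-like cluster, and the part of the others was not tested. The share of all genes that were higher was not computed with thinned cells or with cells chosen by markers. The share of CAR-like cells with a UMI of Nlrc5 was 8.63% in Veh and 23.1% in Doxo, and 2.26 and 4.56% at equal depth. In cells like bone and cartilage fibroblasts, the share was 0.543 and 0.515%.

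The CAR-like cells fell into a population of 187 Veh and 335 Doxo cells, one of 173 and 77 cells, and one of 11 and 16 cells. Ccl2, a chemokine, was highest in the second, at 5323 CPM in Veh and 554 in Doxo. It stood at 81.3 and 80.2 in the first and at 2083 and 228 in the third. The ratios below are of the first and second. Nlrc5 stood at 21.3 CPM in Veh and 39.5 in Doxo in the first (log2 ratio 0.87, 0.21 to 1.63), on 22 and 97 UMIs. It stood at 13.4 and 28.0 in the second (1.07, 0.02 to 2.10), on 18 and 17 UMIs. The UMIs in the second were in sum under the minimum, so Nlrc5 was counted as higher in the first but not in the second. B2m stood at 2765 and 3391 in the first (0.29, 0.23 to 0.36) and at 2551 and 2705 in the second (0.08, -0.0011 to 0.17). Tap1 had a ratio of 0.14 (-0.22 to 0.52) in the first and 0.64 (0.06 to 1.21) in the second, and Psmb9 of 0.17 (-0.15 to 0.51) and 0.42 (-0.06 to 0.89), so the interval of Tap1 covered 0 in the larger population and that of Psmb9 in both. H2-K1 was at -0.06 (-0.11 to 0.0036) and -0.23 (-0.31 to -0.14). H2-D1 stood at 4063 and 4513 in the first (0.15, 0.10 to 0.20) and at 4599 and 3847 in the second (-0.26, -0.33 to -0.19). The ratio of H2-D1 thus had opposite signs in the first and second, and was near 0 over CAR-like cells as a whole. Differences between the populations were not tested.

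Outside CAR-like cells, the heavy chains pointed down or up by class. In cells like bone and cartilage fibroblasts, 9 of the genes met the minimum and none was higher or lower (3.9% and 8.78% of all genes were). Their median log2 ratio was -0.19, against -0.09 over all genes, with H2-D1 at -0.32 (-0.37 to -0.26), H2-K1 at -0.21 (-0.31 to -0.10) and B2m at -0.12 (-0.19 to -0.04). In arteriolar and endosteal fibroblast-like cells, 2 of 9 were lower (9.58% of all genes were) and none was higher (7.5%). Those were Psmb8, from 32.1 to 19.0 CPM (-0.74, -1.31 to -0.23), and Tap2, from 34.8 to 24.4 (-0.50, -1.01 to -0.04). In chondrocyte-like cells, 2 of 7 were lower (12.3%) and none higher (14.4%). Tap1 stood at 10.7 CPM in Veh and 4.84 in Doxo (-1.11, -2.08 to -0.29) on 52 and 15 UMIs, and H2-D1 had a ratio of -0.53 (-0.69 to -0.38), while B2m was at 0.03 (-0.14 to 0.20). The sum of 8 CAR markers was also lower in Doxo in these classes, at 478 CPM in Veh and 306 in Doxo in chondrocyte-like cells (5 of 7 with enough UMIs lower) and at 505 and 403 in cells like bone and cartilage fibroblasts (4 of 7 lower). Its part in these ratios was not tested.

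Endothelial-like cells met the minimum for 9 genes, with none higher or lower (12.4% and 10.9% of all genes were). H2-K1 was at 0.17 (0.01 to 0.32) and B2m at 0.23 (0.10 to 0.35), and the sum of 8 CAR markers in these cells was 1047 CPM in Veh and 2563 in Doxo. The part of that RNA in these ratios was not tested. Osteoblast-like cells were the shallowest, with a median of 3065 UMIs per cell in Veh and 2930 in Doxo, and only H2-K1, H2-D1 and B2m met the minimum. B2m stood at 355 CPM in Veh (276 UMIs) and 588 in Doxo (286 UMIs), a log2 ratio of 0.73 (0.48 to 0.97), which made 1 of 3 higher where 12.8% of all genes were higher and 18.1% lower. The count of osteoblast-like cells' genes that were higher ran from 0 to 4 under other settings. A count of 4 exceeds the 3 genes that met the minimum here, so the genes counted also changed. Shares over all genes were not computed under those settings. In the unnamed cluster 4 genes met the minimum and none was higher (11.2%) or lower (9.47%), with H2-K1 at 0.39 (0.09 to 0.71).

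**Figure D4:**
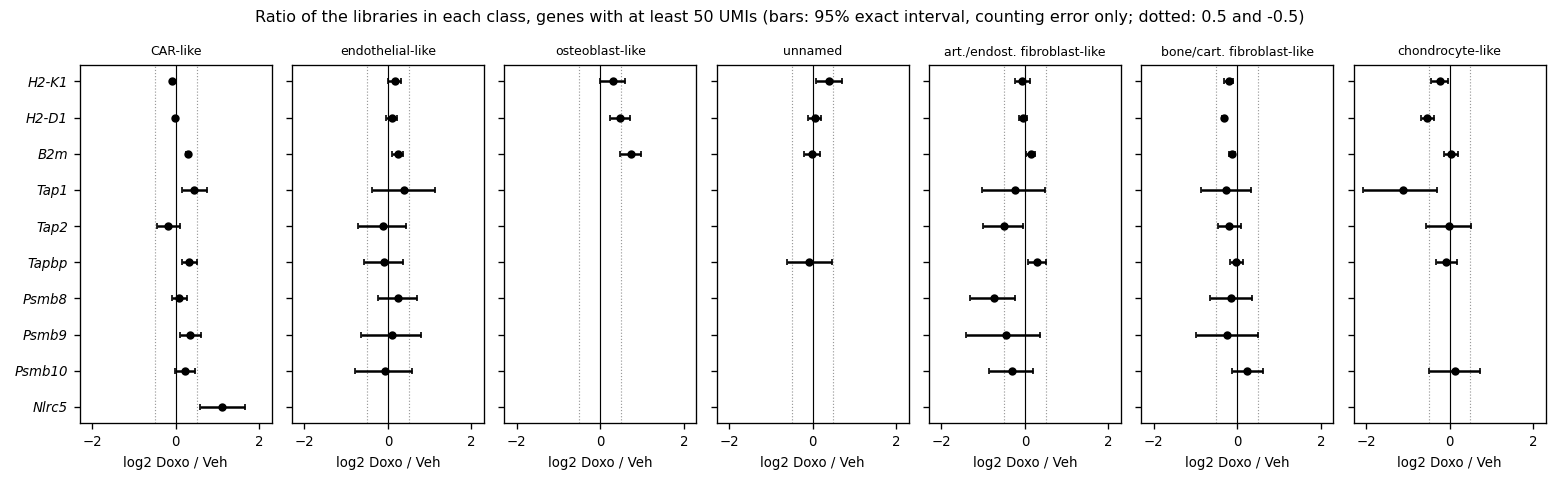
Log2 ratio of Doxo to Veh for each of the 10 genes in each class, for genes with at least 50 UMIs in the class, with exact conditional binomial intervals. Dotted lines mark 0.5 and -0.5. Nlrc5 in CAR-like cells and B2m in osteoblast-like cells lie beyond the upper line, and Psmb8 and Tap2 in arteriolar and endosteal fibroblast-like cells and H2-D1 and Tap1 in chondrocyte-like cells lie at or beyond the lower one.

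Pooling the cells of a library gave another picture, since CAR-like cells held 10.3% of the UMIs in Veh and 16.2% in Doxo. Over all cells H2-K1 stood at 486 CPM in Veh and 612 in Doxo, a log2 ratio of 0.33, but with the classes held at their Veh shares the ratio was -0.07. In the same order the ratios for H2-D1 were 0.22 and -0.10, for Psmb8 0.24 and -0.07, and for Tap1 0.35 and 0.06. For B2m they were 0.42 and 0.17, and for Nlrc5 1.21 and 0.72. CAR-like cells carried 65.2% of all H2-K1 UMIs in Veh and 77.4% in Doxo.

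The wider pathway in CAR-like cells was described from lists, where 13.7% of all genes in these cells were higher and 10.4% lower. Of 11 other class I genes with enough UMIs, 1 was higher and 2 were lower, with a median log2 ratio of -0.07. H2-Q4 stood at 203 and 302 CPM (0.57), H2-Q10 at 217 and 281 (0.38) and Cd1d1, which presents lipids, at 205 and 243 (0.24). The lower ones were H2-M3 (-0.53) and Mr1 (-1.07), which presents microbial vitamin metabolites, at 34.9 and 16.6. The H2-Q genes are near-identical copies, so their values are uncertain. None of 11 peptide loading and trimming genes was higher or lower, and their ratios ran from -0.39 for Npepps to 0.28 for Sec61b. Of the 5 regulators of the 20S proteasome, Psmf1 was higher at 0.85 on 32 and 77 UMIs. The PA28 subunits Psme1 and Psme2, which cap the immunoproteasome, were at 0.41 (0.22 to 0.61) and 0.15 (-0.07 to 0.37). Psme3 was at 0.12 and Psme4 at -0.47. None of 19 constitutive 20S and assembly genes was higher or lower (median 0.19), from Psmb3 at 0.33, Psmg3 at 0.33 and Psmb1 at 0.31 down to Psmg4 at -0.06 and Psmb6 at -0.14.

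Factors that act on class I promoters gave no higher gene among 12. The DNA-binding partner of Nlrc5, Rfx5, was at 0.27 (-0.51 to 1.10), with Nfyb at 0.20 and Rfxank at 0.19. Nfkb1, a subunit of NF-kB, was lower, at 245 CPM in Veh and 106 in Doxo (-1.20, -1.40 to -1.02), as was Nfya (-0.68). Of 15 interferon receptor and signalling genes, 5 were higher and 3 lower, where 13.7% and 10.4% of all genes were. The second CAR-like population, highest in Ccl2, made up 173 of 371 CAR-like cells in Veh and 77 of 428 in Doxo. Its part in these counts was not tested. Usp18, a brake on the type I receptor, had 24 UMIs in Veh and 118 in Doxo (1.87), and Irf7 stood at 35.3 and 76.6 CPM (1.11). The kinases Jak1 (-0.83) and Jak2 (-1.20) were lower.

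Targets of interferon had larger median ratios in CAR-like cells than the 10 genes, a difference that was not tested. Of 15 targets leaning to type I interferon, 10 were higher and none lower, with a median of 0.87, where 13.7% of all genes in these cells were higher and 10.4% lower. Ifit3b had 3 UMIs in Veh and 53 in Doxo. Ifit1 stood at 20.4 and 102 CPM (2.32, 1.90 to 2.78) and Ifit3 had 33 and 172 UMIs (1.96), while Ddx58 (0.20) and Bst2 (0.10) were lowest. Of 13 targets leaning to type II interferon, 7 were higher and 1 lower, with a median of 0.59, against the same shares of all genes. Cxcl9 stood at 158 and 372 CPM (1.23), Gbp7 at 42.8 and 85.2 (0.99) and Iigp1 at 392 and 743 (0.92), while Gbp5 was at 0.15 and Cxcl10 was lower (-1.05). In the first CAR-like population alone, 9 of the type I list and 2 of the type II list were higher. How many genes of each list met the minimum there was not recorded, nor was the share of all genes that were higher. Among 9 type I targets in cells like bone and cartilage fibroblasts, none was higher and 3 were lower (median -0.21), where 3.9% of all genes were higher and 8.78% lower. In endothelial-like cells 4 of 6 were higher and none lower (median 0.77), where the shares were 12.4% and 10.9%. Of the interferon genes themselves, Ifna2 was analysed here, with 0 UMIs in CAR-like cells.

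Class II genes, used by antigen-presenting cells, had few UMIs in CAR-like cells. Cd74, the invariant chain, had 3 UMIs in Veh and 20 in Doxo, H2-Ab1 had 13 and 7, H2-Aa 4 and 1, H2-DMa 7 and 8, Ctss 0 and 1, and Ciita 0 in both. H2-DMb1 (21 and 37 UMIs, 0.40) and H2-Eb1 (19 and 31 UMIs, 0.29) met the minimum. Among ligands of natural killer and T cell receptors, Nectin2 had 99 and 105 UMIs (-0.32, -0.73 to 0.09) and Pvr 35 and 26 (-0.82, -1.62 to -0.06). Cd274, which encodes PD-L1, had 8 and 16 UMIs and Ulbp1 5 and 17, both under the minimum. Raet1d had 0 and 1, and Pdcd1lg2, Raet1e and H60b had 0 in both libraries.

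**Figure D5:**
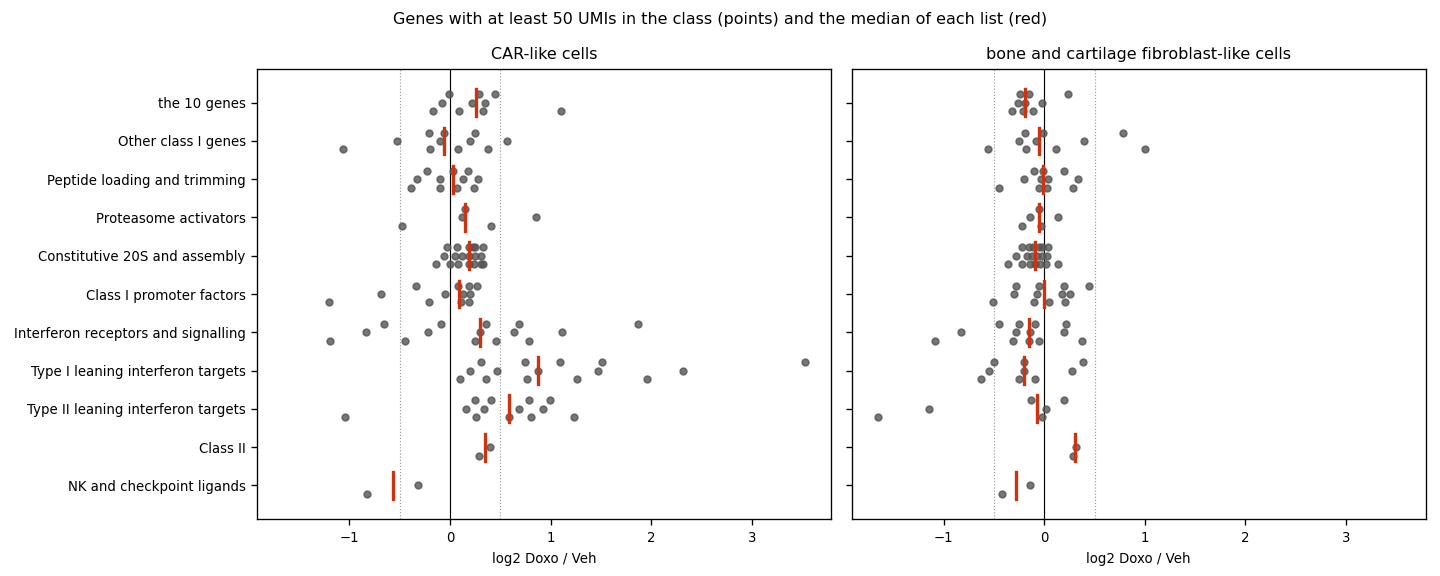
Log2 ratio of Doxo to Veh of the single genes of each list (points) with the median of the list (red), in CAR-like cells and in cells like bone and cartilage fibroblasts, for genes with at least 50 UMIs. In CAR-like cells the medians of the type I and type II lists are 0.87 and 0.59, against 0.26 for the 10 genes, and in the fibroblast-like cells they are -0.21 and -0.08.

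Across the 14 class and library values, the genes most like the mean of the 10 were found by Pearson's r of log2(CPM + 1), among 11550 genes. They were Vcam1 (0.98), Ltbr (0.97), Rcbtb2 (0.97), Bst2 (0.97), Kitl (0.96), Rbpms (0.96), Gm26632 (0.96), Rtp4 (0.96), Pparg (0.96) and Ssh2 (0.96). Vcam1 and Kitl are markers by which CAR-like cells were named, and the 14 values share 2 libraries and their clustering, so r is given as a description. Vcam1 stood at 2031 CPM in CAR-like cells of Veh and 2229 in Doxo, and Pparg, a regulator of fat cells, at 113 and 167. Bst2 (tetherin) and Rtp4 are themselves in the type I list. Each of the 10 genes followed the mean of the other 9 with r from 0.60 (Nlrc5) and 0.74 (Tapbp) to 0.98 (Psmb9).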

How the data were processed

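Droplet 3' single-cell RNA libraries of bone-resident cells, 1 of Veh and 1 of Doxo, were analysed. The authors aligned reads to GRCm38 with Cell Ranger (version and annotation release are not given in the sources used here), and the submitters' processing notes also name Partek. The values deposited by the authors are log2 values, scaled per cell in 2 rounds to a sum of 1000000. Both rounds were inverted, and 99.9% of values below 50 UMIs came out within 0.05 of a whole number, as did all such values of the 10 genes. Cells (200 to 10000 genes, 100 to 100000 UMIs, at most 10% mitochondrial UMIs) were clustered in Seurat 5.3.0 (R 4.3.3; 35 components of 2000 variable genes, resolution 0.1). Endothelial clusters were set apart and the rest clustered again, and CAR-like cells were clustered alone at 0.2. A cluster took the name of the class with most markers, at least 3, each in at least 10% of its cells and 1 log2 unit above the other cells. Rebuilt names may differ from the study's.

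Sums carry exact Poisson intervals, shares exact binomial intervals, and ratios, with 0.5 UMI added, exact conditional binomial intervals. Calculations were tested on simulated data. Equal depth means each cell thinned to 2000 UMIs, shallower cells left out (17 Veh and 11 Doxo CAR-like cells). Doublets were kept, and Scrublet in scanpy 1.11.5 called 9 Veh and 3 Doxo cells. The members, lists and markers were chosen with earlier results of these data known. Named are the 10 genes, their constitutive partners, up to 3 highest and 2 lowest genes of each list in CAR-like cells (all of lists of at most 8), and the 10 most similar genes. 1 gene that this rule names is not reported here. Ptprc and Ccl2 were named after their values were seen. Tap2 and Nlrc5 promoters were not used here.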

Additional observations from a re-analysis of the deposited data

Results flagged for a closer look

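For 4 of the 10 genes the libraries pointed in opposite directions in different classes of cells, with intervals of the log2 ratio of Doxo to Veh above 0 in one class and below 0 in another. These differences were not tested, since each condition has 1 library. The share of all genes with intervals on both sides of 0 was not computed, so the count is not read as a trait of these genes. Tap1 differed most, by 1.56 on the log2 scale, between CAR-like cells (0.45) and chondrocyte-like cells (-1.11), where it rested on 52 and 15 UMIs. The ratio in CAR-like cells was 0.01 with cells thinned to 2000 UMIs and 0.14 (-0.22 to 0.52) in the largest CAR-like population, so that side of the contrast is not held there. H2-D1 differed by 1.01 between osteoblast-like cells (0.48) and chondrocyte-like cells (-0.53). In osteoblast-like cells it ran from -0.15 with the stricter filter on cells to 0.97 without the lists among the variable genes, so the opposite direction is lost under that filter. B2m differed by 0.84 between osteoblast-like cells (0.73) and cells like bone and cartilage fibroblasts (-0.12), and its interval was above 0 in 4 classes. In those fibroblast-like cells the median over all genes was -0.09, and B2m stood at -0.03 when centred on it. H2-K1 differed by 0.63 between the unnamed cluster (0.39) and chondrocyte-like cells (-0.24). No other gene of the 10 with at least 50 UMIs in a class had intervals on both sides of 0.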

How the results depend on the processing

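No paired analysis was possible because each condition has 1 library and the labels carry no replicate numbers. With 1 library each, library, batch and condition cannot be told apart, and genes under 50 UMIs leave wide intervals. Over 15 alternatives, 886 of 976 values stayed within their interval or within 1.5 times the count, 90 moved, and none that was called changed sign.

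In CAR-like cells the count of higher genes was 1, but 3 when cells were thinned to 2000 UMIs. It was 0 with a minimum of 200 UMIs, which left out Nlrc5 at 158 UMIs. With CAR-like cells chosen by their markers it was 6. Of the cells chosen that way, 793 lay in the CAR-like cluster. The shares over all cells so chosen, in Veh and Doxo, were 35.3 and 42.4% for Psmb8, 18.5 and 30.8% for Psmb9, and 36.3 and 46.6% for Psmb10. Thinning gave 49.5% for Psmb8 in Veh. In osteoblast-like cells the count was 1, and 2 with 20 components, with every cell weighing the same or with centring on the median gene, 4 at resolution 0.2, without the lists among the variable genes or without doublets, 3 with a minimum of 10 UMIs, and 0 with the stricter filter on cells or a log2 ratio of at least 1. In endothelial-like cells it was 1 with every cell weighing the same. CAR-like cells were highest for 4 genes in Veh when thinned. The count for the type II list was 7, but 3 when thinned, 1 for a log2 ratio of at least 1, and 2 in the largest population. The causes were not tested, and shares over all genes were not computed under the alternatives. Among chondrocyte-like cells and both fibroblast-like classes no alternative made a gene higher. The log2 ratio of H2-K1 in CAR-like cells ran from -0.13 to 0.42.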
